A study of Mus musculus with 42 samples.

Results

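Regulatory T cell genes were followed in MC38 tumors as a set of 8 transcripts, Foxp3, Ikzf2, Il2ra, Ctla4, Icos, Tnfrsf18, Tnfrsf4 and Ccr8, chosen by name from the 26811 genes of the deposited table. All 8 were present and all 8 were among the 16932 genes tested. MC38 is a mouse colon cancer line, and its cells had been placed under the skin of female (CC075/UncJ x C57BL/6J) F1 mice aged 8 to 12 weeks. RNA of 42 tumors was sequenced from poly(A) libraries. Blocking antibodies to GM-CSF (aGM-CSF, 100 µg) or to the IL-2 receptor β chain IL2RB (aIL2RB, 200 µg), or matched isotype antibodies, were given by the intraperitoneal route from engraftment on, at intervals of 3 days, until a tumor measured 75 to 110 mm3. Each mouse then received 1 dose of 200 µg of antibody to PD-1 (aPD1) or of its isotype control, and tumors were taken 48 h later.

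In the isotype group 5 mice received isotype antibodies alone. The remaining 37 received aPD1, 6 of them without a blocking antibody, 9 with aGM-CSF, 11 with aIL2RB and 11 with both, and each group is named by the antibodies it received. All 5 groups shared the host cross, the tumor line and the injections, so the isotype and aPD1 groups differed by the aPD1 dose alone. The labels call the tumors of a group biological replicates without naming litters or days, so that p-values measure the spread between these tumors. All hosts came from 1 F1 cross and carried 1 cell line, which limits each group as a model.

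Regulatory T cells are CD4+ T cells that restrain other immune cells, and the transcription factor Foxp3 maintains their identity. They express the IL-2 receptor α chain (Il2ra), which joins the β (Il2rb) and γ (Il2rg) chains to form the high-affinity receptor, and IL-2 signaling through STAT5 sustains Foxp3. In tumors they carry the inhibitory receptor Ctla4, the costimulatory receptors Icos, Tnfrsf18 (GITR) and Tnfrsf4 (OX40), and the chemokine receptor Ccr8. These receptors also appear on other activated T cells, and Ikzf2 (Helios) is a zinc-finger factor of the Ikaros family.

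Total expected counts ran from 7155486 to 24101674 per tumor, and the next lowest library after the shallowest, aPD1 + aGM-CSF + aIL2RB replicate 4, held 15109228. The 5 ribosomal RNA genes of the table took 1.717% to 17.94% of the counts. Their median share was 9.00% in aPD1 tumors, against 6.71% in isotype, 6.55% with aGM-CSF, 6.63% with aIL2RB and 7.25% with both, with overlapping ranges. An earlier analysis of these data had found 2 sets of tumors along the replicate numbers, 22 in a first set and 20 in a second, which the labels do not name. They are used here as sets, with values within each beside the pooled ones. The labelled tissue carried Ptprc, the pan-leukocyte gene CD45, at 86.8 to 412 CPM in every tumor, CPM being the count scaled to 1000000 counts of TMM-adjusted library size. Pan T cell genes were present in every tumor too, their 14 members summing to 2.51 to 170 CPM.

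All members were rare transcripts except Ikzf2. Foxp3 had 5.4 to 85.7 expected counts per tumor, so each single-tumor value carries a wide counting error. On a per-length scale, which allows genes to be compared, Tnfrsf18 stood highest in aPD1 tumors at 3.01 ± 0.643 CPM per kb of exon (SD, n = 6), followed by Icos at 2.95 ± 0.928, Ctla4 at 2.80 ± 0.897 and Ikzf2 at 2.66 ± 0.165. These 4 levels overlapped within their SD. Tnfrsf4 followed at 2.21 ± 0.506 and Il2ra at 1.61 ± 0.586, and the lowest were Ccr8 at 0.950 ± 0.421 and Foxp3 at 0.720 ± 0.282, which also overlapped. In isotype tumors Ikzf2 was highest at 2.29 ± 0.183 CPM per kb, overlapping Tnfrsf18 at 2.02 ± 0.715, and Foxp3 lowest at 0.401 ± 0.199 (SD, n = 5). In aPD1 + aGM-CSF + aIL2RB tumors Ikzf2 remained at a mean of 2.38 CPM per kb, while Ctla4 stood at 0.567, Icos at 0.472 and Ccr8 at 0.125.

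The members lie on 5 chromosomes in the GRCm38 annotation. Foxp3 (ENSMUSG00000039521) is at chrX:7573644-7595245 on the plus strand. Ctla4 (chr1:60887000-60915832) and Icos (chr1:60977927-61000320) are neighbours, 62.1 kb apart on the plus strand, with their relative Cd28 another 114 kb before Ctla4. Tnfrsf4 (chr4:156013843-156016612) and Tnfrsf18 (chr4:156026164-156028895) are also neighbours, 9.55 kb apart on the plus strand. Ikzf2 (chr1:69531214-69687245) is on the minus strand, and Il2ra (chr2:11642807-11693193) and Ccr8 (chr9:120092114-120094906) are on the plus strand.

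Foxp3 had a count that was not whole, by a tolerance of 0.001, in 36 of 42 tumors, and its interval overlaps Ppp1r3f, Gm36995, Flicr and Ccdc22, of which Ccdc22 held 83.3 to 515.2 expected counts per tumor. Tnfrsf18 was not whole in 40 of 42 tumors and overlaps the antisense gene Gm16008, which held 7.5 to 53.6. The other 6 members had whole counts in all 42 tumors. Summed with their overlapping genes, the counts were still not whole in 20 tumors for Foxp3 and 25 for Tnfrsf18. The source of the parts of counts was thus not established. Whether the counting used strand is not given in the sources used here. The values of Foxp3 and Tnfrsf18 are uncertain by an unknown share of reads divided with other genes.

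Promoter windows of RefSeq (GRCm38.p6), from 250 bases before to 50 after an annotated start, were found for 6 of the 8 members, with 2 windows for Foxp3, and are shown because 8 members fell with aIL2RB, 7 with both antibodies and 4 with aGM-CSF against aPD1. Icos and Ikzf2 had no entry. The 3 windows printed here hold a forkhead or STAT motif, given in capitals, all on the plus strand, the first Foxp3 window at chrX:7579426-7579725, the other Foxp3 window at chrX:7580233-7580532 and the Tnfrsf18 window at chr4:156026072-156026371. Both Foxp3 windows lie inside the annotated gene interval.
Foxp3 window 1: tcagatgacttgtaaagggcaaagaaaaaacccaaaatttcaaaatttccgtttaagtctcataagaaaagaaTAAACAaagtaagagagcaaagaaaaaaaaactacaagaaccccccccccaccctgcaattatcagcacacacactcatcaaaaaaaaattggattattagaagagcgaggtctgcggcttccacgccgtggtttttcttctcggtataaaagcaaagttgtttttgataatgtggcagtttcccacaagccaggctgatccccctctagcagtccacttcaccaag
Foxp3 window 2: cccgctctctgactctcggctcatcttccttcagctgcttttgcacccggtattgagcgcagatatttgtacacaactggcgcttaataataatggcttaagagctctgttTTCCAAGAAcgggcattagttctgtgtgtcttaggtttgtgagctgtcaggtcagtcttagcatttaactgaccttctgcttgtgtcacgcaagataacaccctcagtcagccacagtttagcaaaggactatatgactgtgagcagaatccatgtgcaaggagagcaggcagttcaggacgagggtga
Tnfrsf18: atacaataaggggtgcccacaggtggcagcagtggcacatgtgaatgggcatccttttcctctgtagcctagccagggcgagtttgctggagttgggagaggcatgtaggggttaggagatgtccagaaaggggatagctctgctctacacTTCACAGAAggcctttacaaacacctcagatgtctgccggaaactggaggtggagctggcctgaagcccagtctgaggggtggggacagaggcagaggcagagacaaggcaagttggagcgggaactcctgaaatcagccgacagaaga
The forkhead match in the first Foxp3 window was TAAACA, starting 177 bases before the start site, and 13.4% of all 32851 windows held these letters on either strand. The STAT motif TTCNNNGAA began 139 bases before the start in the second Foxp3 window and 99 bases before it in the Tnfrsf18 window, against 8.3% of all windows. None of the 7 member windows held the forkhead letters TGTTTAC (3.65% of all windows) or the AP-1 motif TGAGTCA (5.2%). The NFAT letters GGAAAA were in 3 member windows (23.4% of all) and the GATA letters AGATAA in 2 (11.2%), both searched on either strand and not capitalised. Such matches describe letters in a window and do not show binding.

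**Figure D1:**
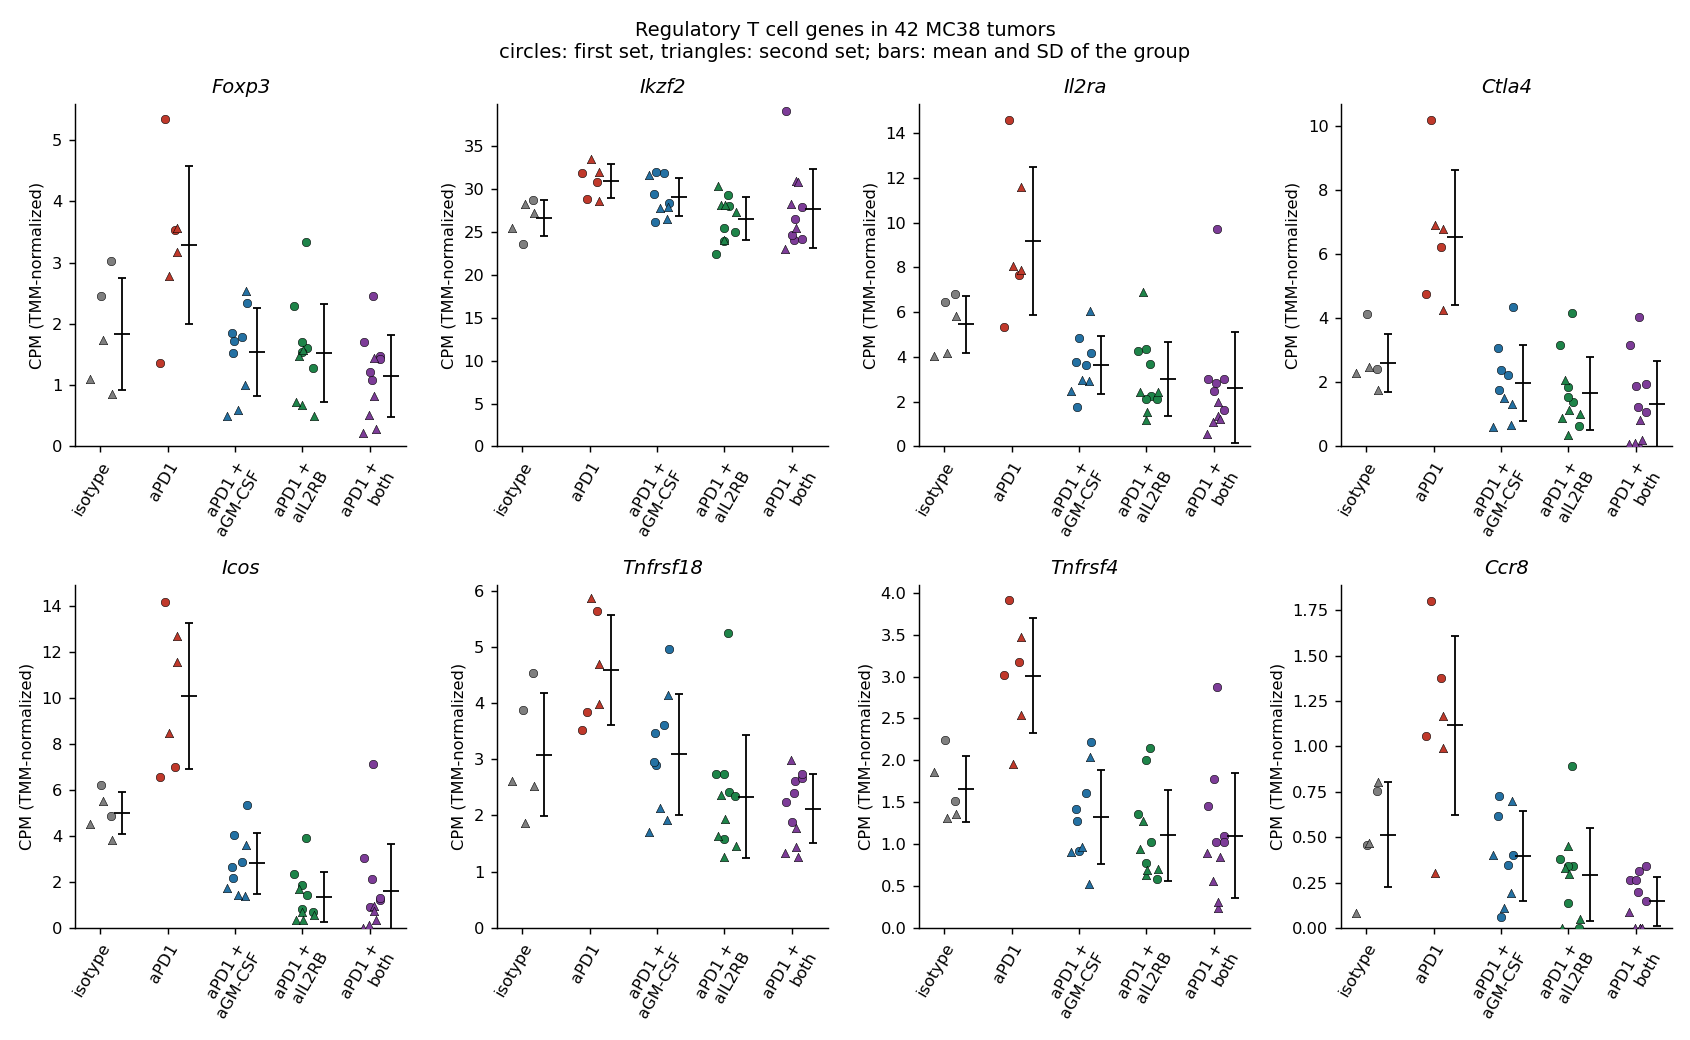
CPM of the 8 regulatory T cell genes in each of 42 tumors by treatment group, with circles for the first set, triangles for the second set and bars for the mean and SD of a group. All 6 aPD1 tumors lie above every isotype tumor for Ctla4 and Icos, and all 11 aPD1 + aIL2RB tumors lie below every aPD1 tumor for the same genes, while the 3 blocked groups overlap each other. The share of all genes separated in this way was not counted.

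The first comparison, aPD1 against isotype, asks how 1 dose of checkpoint blockade altered the members within 48 h. All 8 mean levels were higher with aPD1, with log2 fold changes from 0.21 (Ikzf2) to 1.31 (Ctla4) and a median of 0.85 against -0.0023 over all genes tested, yet none passed the test. In edgeR's quasi-likelihood test with Benjamini-Hochberg adjustment over all genes, 0 of 8 were called at an adjusted p under 0.05, where 6.17% of all genes were called higher. At an unadjusted p under 0.05, 3 members were higher, beside 4074 of the 16932 genes tested in either direction. DESeq2 called 0 members.

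Foxp3, in isotype tumors 1 to 5, stood at 3.02, 2.46, 0.857, 1.10 and 1.73 CPM. In aPD1 tumors 1 to 6 it stood at 5.34, 3.54, 1.36, 3.18, 2.78 and 3.56 CPM. The groups overlapped, with aPD1 replicate 3 lower than 3 of the 5 isotype tumors and aPD1 replicate 5 lower than isotype replicate 1. Its log2 change was 0.84 ± 0.45 (SE, adjusted p = 0.248), 0.31 within the first set and 1.38 within the second. Ikzf2 ran from 23.6 to 28.7 CPM in isotype and from 28.6 to 33.5 CPM in aPD1 tumors, a narrow range with a log2 change of 0.21 ± 0.09 (SE, adjusted p = 0.144).

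Ctla4, which competes with CD28 for CD80 and CD86, did not overlap between the 2 groups. The share of all genes tested without such overlap was not counted, so separation of groups is given here and below as a description. Isotype tumors 1 to 5 had 2.41, 4.15, 1.76, 2.28 and 2.48 CPM, and aPD1 tumors 1 to 6 had 10.2, 6.24, 4.77, 6.8, 6.92 and 4.26 CPM. All 6 aPD1 values were above all 5 isotype values. On the log2 scale the change was 1.31 ± 0.61 (SE), with an adjusted p of 0.172 in the fit of all 42 tumors and of 0.00844 when the 2 groups alone were fitted. Icos, a relative of CD28 on activated and regulatory T cells, had 4.86, 6.21, 3.83, 4.52 and 5.51 CPM in isotype tumors 1 to 5 and 14.2, 7.02, 6.58, 12.7, 8.50 and 11.6 CPM in aPD1 tumors 1 to 6. These groups did not overlap either, with a log2 change of 1.02 ± 0.58 (SE) and an adjusted p of 0.283, or 0.0114 with the 2 groups alone. Tnfrsf4 behaved alike under this choice, its log2 fold change of 0.86 ± 0.39 (SE) having an adjusted p of 0.169, or 0.0385 with the 2 groups alone. The call on these 3 members depended on which tumors were fitted.

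The second comparison, aPD1 + aGM-CSF against aPD1, asks whether blocking GM-CSF, a growth factor of myeloid cells, altered the members after aPD1. Il2ra, Ctla4, Icos and Tnfrsf4 fell, and Foxp3, Ikzf2, Tnfrsf18 and Ccr8 had lower means that did not pass. The count was 4 of 8 lower and 0 higher, beside 8.75% of all genes called lower, and the median log2 fold change was -1.26 against 0.0066 over all genes. DESeq2 called 5 members, and a fit with a term for the 2 sets called 6. The aPD1 tumors, the reference here and in the next comparisons, had the highest median share of ribosomal RNA, and with those 5 genes left out the count stayed at 4 here, 8 with aIL2RB and 7 with both.

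Icos stood at 1.39 CPM in the lowest, 2.65 in the median and 5.33 in the highest of the 9 aPD1 + aGM-CSF tumors. All 9 were below every aPD1 tumor. The fitted log2 change was -1.85 ± 0.50 (SE, adjusted p = 0.0103). Within the sets it was -1.43 (adjusted p = 0.224) and -2.44 (adjusted p = 0.00296).

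Il2ra stood at 1.76, 3.65 and 6.07 CPM in the lowest, median and highest aPD1 + aGM-CSF tumor, against 14.6, 7.68, 5.33, 11.6, 8.05 and 7.87 CPM in aPD1 tumors 1 to 6. Of the 9 tumors, 8 were below every aPD1 tumor, and the log2 fold change was -1.34 ± 0.36 (SE, adjusted p = 0.0106), at -1.33 (adjusted p = 0.176) in the first and -1.36 (adjusted p = 0.0373) in the second set. Ctla4 had a lowest, median and highest value of 0.601, 1.76 and 4.35 CPM, again with 8 of 9 tumors below every aPD1 tumor. Its log2 fold change was -1.71 ± 0.51 (SE, adjusted p = 0.0210), with an adjusted p of 0.190 in the first and 0.00322 in the second set, and of 0.0571 without aPD1 replicate 1. Tnfrsf4, a TNF-family receptor that costimulates T cells, ran from 0.527 to 2.22 CPM with a median of 1.28, and aPD1 tumors from 1.96 to 3.91 CPM. Of the 9 tumors, 7 were below every aPD1 tumor, and its log2 fold change was -1.18 ± 0.34 (SE, adjusted p = 0.0148), with an adjusted p of 0.195 in the first and 0.0465 in the second set.

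Foxp3 stood at 0.501, 1.72 and 2.53 CPM in the lowest, median and highest aPD1 + aGM-CSF tumor, with 6 tumors inside the aPD1 range and 3 below it. The log2 fold change was -1.09 ± 0.39 (SE) with an adjusted p of 0.0515. It passed in DESeq2 (adjusted p = 0.0364), with a set term (adjusted p = 0.00779), with the 2 groups alone (adjusted p = 0.0304), and without aPD1 replicate 3 (adjusted p = 0.0266), aPD1 + aGM-CSF replicate 4 (adjusted p = 0.0394) or replicate 6 (adjusted p = 0.0370). Tnfrsf18 had a log2 change of -0.57 ± 0.25 (SE, adjusted p = 0.123, or 0.0344 with a set term) and Ccr8 one of -1.50 ± 0.58 (SE, adjusted p = 0.0799, or 0.0222 with the 2 groups alone). Ikzf2 differed by -0.09 ± 0.08 (SE, adjusted p = 0.534).

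The third comparison, aPD1 + aIL2RB against aPD1, asks what followed when the receptor chain shared by IL-2 and IL-15 was blocked. All 8 members fell, beside 14.5% of all genes called lower. The median log2 fold change was -1.53 against 0.0036 over all genes. DESeq2 and the fit with a set term also called 8 of 8, the fit with the replicate number 6, and the sets alone 5 and 6.

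Icos, with the lowest log2 fold change of the 8, came close to zero in several tumors. Its lowest, median and highest values among the 11 aPD1 + aIL2RB tumors were 0.326, 0.813 and 3.93 CPM, against 6.58 to 14.2 CPM in aPD1 tumors. All 11 were below every aPD1 tumor, a 7.65-fold lower level with a log2 change of -2.94 ± 0.49 (SE, adjusted p = 1.24e-05). It was -2.34 in the first set (adjusted p = 0.00349) and -3.94 in the second (adjusted p = 1.26e-05).

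Ctla4 stood at 0.359, 1.40 and 4.17 CPM in the lowest, median and highest tumor, and all 11 were below every aPD1 tumor. Its log2 change was -1.98 ± 0.49 (SE, adjusted p = 0.00179), at -1.74 and -2.46 within the sets, both past the threshold. Il2ra stood at 1.17, 2.42 and 6.92 CPM, with 10 of 11 tumors below every aPD1 tumor and replicate 9 inside the aPD1 range. Its log2 fold change was -1.60 ± 0.35 (SE, adjusted p = 0.000429), at -1.55 and -1.68 within the sets, both past the threshold. Il2rb, the chain the antibody binds, fell from 41.9 ± 12.7 CPM (SD, n = 6) to 3.63 ± 3.23 CPM (SD, n = 11), a log2 change of -3.55 ± 0.48 (SE, adjusted p = 5.22e-07), and Il2rg, the γ chain, by 1.47 on the log2 scale (adjusted p = 8.56e-07).

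Tnfrsf18 stood at 1.26, 2.34 and 5.25 CPM in the lowest, median and highest aPD1 + aIL2RB tumor, against 3.52 to 5.87 CPM with aPD1. Replicate 3 lay inside the aPD1 range and the other 10 below it. On the log2 scale the change was -0.98 ± 0.24 (SE, adjusted p = 0.00158), with an adjusted p of 0.124 in the first and 0.00117 in the second set. Tnfrsf4 stood at 0.586, 0.937 and 2.15 CPM, with 9 of 11 tumors below every aPD1 tumor and a log2 change of -1.45 ± 0.32 (SE, adjusted p = 0.000587) that passed in both sets. The aPD1 + aIL2RB replicate 3 tumor had the highest level in its group of Foxp3, Ctla4, Icos, Tnfrsf18, Tnfrsf4 and Ccr8.

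Ccr8, the receptor for CCL1 and CCL8 in the mouse, was at 1.80, 1.38, 1.06, 0.990, 0.301 and 1.17 CPM in aPD1 tumors 1 to 6. In aPD1 + aIL2RB tumors it stood at 0, 0.332 and 0.894 CPM in the lowest, median and highest, 2 tumors having no count. The fitted log2 change was -1.93 ± 0.56 (SE, adjusted p = 0.00751), with an adjusted p of 0.0265 in the first set and 0.105 in the second. Ccr8 reached the 0.4947 CPM that the filter on low counts asks for in 5 of 6 aPD1 tumors but in 2 of 5 isotype, 3 of 9, 1 of 11 and 0 of 11 tumors of the remaining groups.

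Foxp3 and Ikzf2, the transcription factors of the set, fell as well. Foxp3 stood at 0.504, 1.55 and 3.34 CPM in the lowest, median and highest aPD1 + aIL2RB tumor, with 4 of 11 below every aPD1 tumor. The log2 fold change was -1.12 ± 0.37 (SE, adjusted p = 0.0190), at -0.80 (adjusted p = 0.114) and -1.69 (adjusted p = 0.0220) within the sets. It no longer passed without aPD1 replicate 1, the tumor with the most Foxp3, at -0.93 (adjusted p = 0.0748). Ikzf2 ran from 22.4 to 30.3 CPM, a log2 change of -0.22 ± 0.08 (SE, adjusted p = 0.0294). That call was lost within either set (adjusted p = 0.175 and 0.146), with library size as the only scaling (adjusted p = 0.151), and without aPD1 replicate 3 (adjusted p = 0.0558), 4 (adjusted p = 0.0645) or 5 (adjusted p = 0.0802) or aPD1 + aIL2RB replicate 4 (adjusted p = 0.0536).

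**Figure D2:**
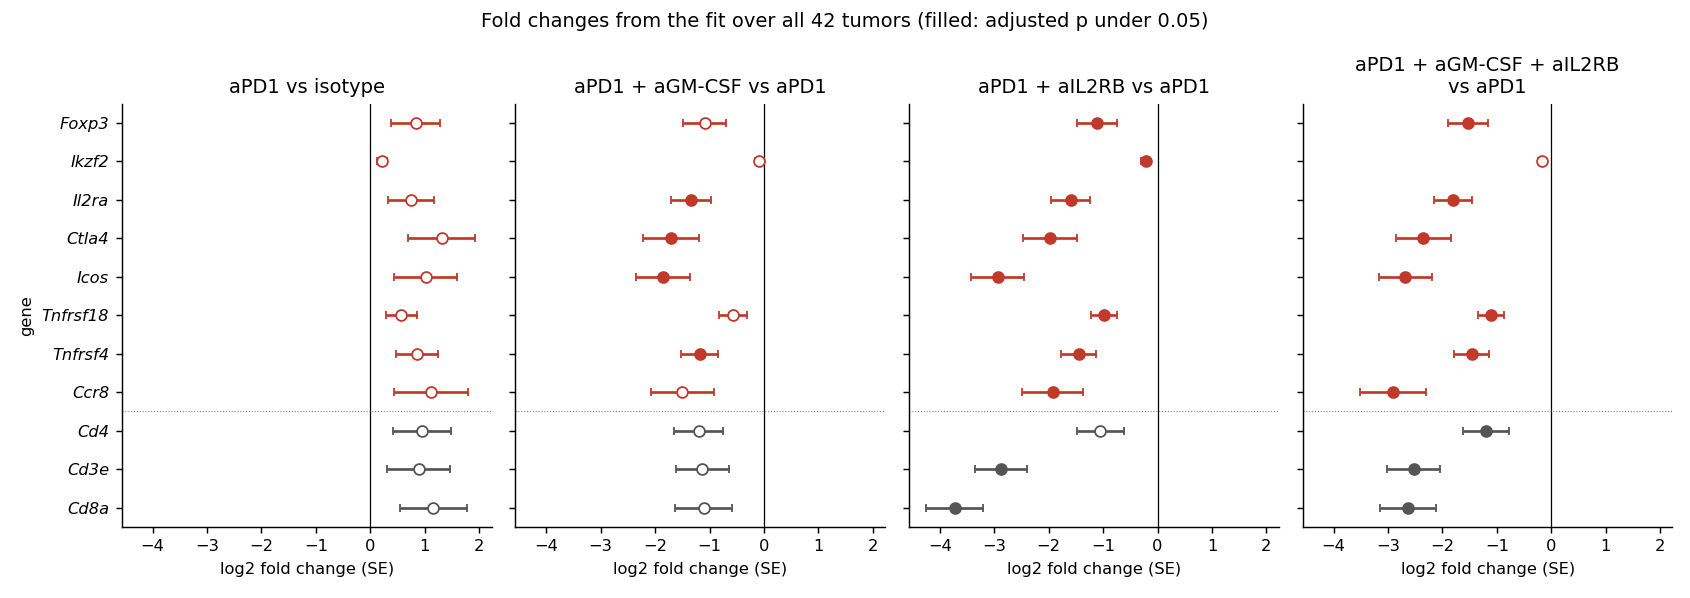
Log2 fold change with its SE, from edgeR, of the 8 members and of Cd4, Cd3e and Cd8a in 4 comparisons, with filled points for an adjusted p under 0.05 over all genes tested. Against aPD1, Icos (-2.94) and Ctla4 (-1.98) lie far below zero with aIL2RB, Foxp3 (-1.12) and Cd4 (-1.05) less so, and Cd3e (-2.88) and Cd8a (-3.73) are as low as Icos or lower.

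The fourth comparison, aPD1 + aGM-CSF + aIL2RB against aPD1, joined both blocking antibodies. Here 7 of 8 members fell, all but Ikzf2, beside 14.3% of all genes called lower, and the median log2 fold change was -1.67 against 0.011 over all genes. DESeq2 also called 7. The first set alone called 3 members and the second 7.

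Foxp3 stood at 0.223, 1.21 and 2.46 CPM in the lowest, median and highest of the 11 tumors, the lowest mean of any group. Of these, 6 were below every aPD1 tumor, and the log2 fold change was -1.53 ± 0.37 (SE, adjusted p = 0.00164), at -1.13 (adjusted p = 0.0535) in the first and -2.31 (adjusted p = 0.00218) in the second set. Icos stood at 0, 0.958 and 7.13 CPM, and replicate 1 alone lay inside the aPD1 range. Its log2 fold change was -2.68 ± 0.49 (SE, adjusted p = 5.69e-05), at -1.84 (adjusted p = 0.0338) and -4.75 (adjusted p = 1.30e-06) within the sets.

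Ctla4 stood at 0, 1.08 and 4.03 CPM, all 11 tumors below every aPD1 tumor, with a log2 change of -2.35 ± 0.50 (SE, adjusted p = 0.000385). Within the first set its mean was 2.22 ± 1.15 CPM (SD, n = 6) and within the second 0.242 ± 0.336 CPM (SD, n = 5), where 1 tumor had no count. Il2ra stood at 0.579, 1.97 and 9.74 CPM, 10 of 11 below every aPD1 tumor, with a log2 change of -1.81 ± 0.35 (SE, adjusted p = 0.000127) and an adjusted p of 0.0684 in the first and 2.39e-05 in the second set. Replicate 1 of this group had its highest Foxp3, Il2ra, Ctla4, Icos and Tnfrsf4.

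Tnfrsf18 stood at 1.27, 2.24 and 2.98 CPM, below every aPD1 tumor in all 11, with a log2 change of -1.11 ± 0.24 (SE, adjusted p = 0.000461). Tnfrsf4 stood at 0.240, 1.03 and 2.88 CPM, with 10 of 11 below every aPD1 tumor and a log2 change of -1.46 ± 0.32 (SE, adjusted p = 0.000669). For both, the first set alone did not pass (adjusted p = 0.0706 and 0.0776) and the second did (adjusted p = 0.000920 and 0.000356). Ccr8 had no count in 4 of the 11 tumors and at most 0.339 CPM, against a highest value of 1.80 CPM with aPD1, and its log2 fold change was -2.91 ± 0.60 (SE, adjusted p = 0.000252). Ikzf2 had a median of 26.5 CPM and its highest value, 39.1 CPM, in the shallow replicate 4, with a log2 change of -0.17 ± 0.08 (SE, adjusted p = 0.110), or -0.23 without that tumor (adjusted p = 0.00739). The aPD1 + aGM-CSF + aIL2RB replicate 9 tumor had no Icos count but 517 counts of Ikzf2.

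Against the isotype group, which received no aPD1, Icos fell with aIL2RB and with both antibodies and no further member was called, though most means were lower. The median log2 fold change over the members was -0.35 with aGM-CSF, -0.63 with aIL2RB and -0.86 with both, beside 0.0056, 0.011 and 0.016 over all genes tested. With aGM-CSF, 0 of 8 members were called in either direction, as was 0.0% of all genes. At an unadjusted p under 0.05 there were 0 of 8, beside 938 of 16932 genes, and DESeq2 called 0. The log2 fold changes ran from -0.83 (Icos) to 0.13 (Ikzf2). With aIL2RB, 1 of 8 was lower beside 1.51% of all genes. That member was Icos at -1.92 ± 0.51 (SE, adjusted p = 0.0294), at -1.60 (adjusted p = 0.128) and -2.68 (adjusted p = 0.0104) within the sets, and the call was lost without isotype replicate 2 (adjusted p = 0.0768), 4 (adjusted p = 0.0656) or 5 (adjusted p = 0.0661). Foxp3 differed by -0.28 ± 0.40 (SE, adjusted p = 0.765) and Il2ra by -0.85 ± 0.37 (SE, adjusted p = 0.207).

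With both antibodies, 1 of 8 was lower than isotype beside 4.51% of all genes. At an unadjusted p under 0.05 there were 4, beside 4520 of 16932 genes in either direction, and the second set alone called 5. The member called was again Icos, at -1.66 ± 0.52 (SE, adjusted p = 0.0339). Its adjusted p was 0.322 in the first set and 0.000472 in the second, 0.102 with the 2 groups alone, and 0.0909, 0.0822 and 0.0602 without isotype replicate 2, 4 or 5, and 0.0526 without replicate 6 of the group given both. Il2ra had a log2 change of -1.06 ± 0.37 (SE, adjusted p = 0.0614), or -1.53 without replicate 1 of that group (adjusted p = 0.00170). Ccr8 had one of -1.79 ± 0.65 (SE, adjusted p = 0.0673), which passed without replicate 1 (adjusted p = 0.0482) or 2 (adjusted p = 0.0474) of that group. A set term brought Il2ra (adjusted p = 0.0273), Ctla4 (adjusted p = 0.0228) and Ccr8 (adjusted p = 0.0258) past the threshold.

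Between the blocked groups no member passed. Of 8 members, 0 were lower with aIL2RB than with aGM-CSF, beside 0.898% of all genes. At an unadjusted p under 0.05 there was 1, beside 2288 of 16932 genes in either direction, and 0 by DESeq2. Members called against aPD1 with aIL2RB but not with aGM-CSF are thus not shown to differ between those groups. Foxp3 differed by -0.02 ± 0.34 (SE, adjusted p = 0.989) and Icos by -1.09 ± 0.46 (SE, adjusted p = 0.266). With both antibodies against aGM-CSF alone, 0 of 8 were lower beside 1.15% of all genes. There 2 had an unadjusted p under 0.05, beside 2933 of 16932 genes in either direction, and 0 were called by DESeq2. The second set alone called 4 members there, and without replicate 1 of the group given both, Il2ra (adjusted p = 0.0421) and Icos (adjusted p = 0.0340) passed. With both against aIL2RB alone, 0 of 8 were lower beside 0.0% of all genes. There 0 had an unadjusted p under 0.05, beside 1212 of 16932 genes in either direction, and 0 were called by DESeq2. The differences ran from -0.98 (Ccr8) to 0.26 (Icos). The group means of Foxp3 thus fell in the order aPD1, isotype, aPD1 + aGM-CSF, aPD1 + aIL2RB and both antibodies, and no 2 neighbours in that order differed beyond their spread.

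Whether the effect of aGM-CSF differed with and without aIL2RB was tested as an interaction, the change from adding aGM-CSF under aIL2RB less that without it. For Icos it was 2.10 ± 0.68 (SE, adjusted p = 0.0454) on the log2 scale, and 1 of 8 members was higher in this term beside 5.29% of all genes, a share too close to the background to be read as a result about the members. The count was 2 with a set term, and 0 within either set, with the replicate block or with library size as the only scaling. Its adjusted p ran from 0.0144 to 0.228 over the alternatives. Leaving out a single tumor ended the call for 21 of the 37 tumors (4 aPD1, 6 aPD1 + aGM-CSF, 7 aPD1 + aIL2RB and 4 given both), with an adjusted p of 0.157 without replicate 1 of the group given both. Tnfrsf4 (1.18 ± 0.45, SE, adjusted p = 0.0918) and Il2ra (1.13 ± 0.48, SE, adjusted p = 0.137) had positive values that did not pass, and their difference from Icos was not tested.

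The 2 sets of tumors were taken from an earlier look at these same data, so differences between them are given as a description with no test. With a set term in the fit, the log2 difference of the second set from the first at equal treatment was -1.29 ± 0.27 (SE) for Ctla4, -1.02 ± 0.29 (SE) for Icos, -0.86 ± 0.20 (SE) for Foxp3, -0.68 ± 0.18 (SE) for Tnfrsf4 and -0.50 ± 0.13 (SE) for Tnfrsf18. Over all 8 members, with Ikzf2, Il2ra and Ccr8, it ran from -1.29 to 0.03 with a median of -0.77. T cell genes were lower too, at -1.11 for Cd4, -0.98 for Cd3e and -1.11 for Cd8a, and their part in the members' values was not tested. The log2 fold change of both antibodies against aPD1 was more negative in the second set by 2.90 ± 0.78 (SE) for Ctla4 and by 2.90 ± 0.84 (SE) for Icos. With group means subtracted, the sets overlapped on each of the first 3 principal components of all tested genes, and on the first of them 13 of 22 tumors of the first set lay below every tumor of the second.

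T cell transcripts were measured in the same tumors. In bulk tumors fewer regulatory T cells and less RNA per cell cannot be told apart. Neither can members read from regulatory T cells, from other T cells and from cells that are not T cells. Ikzf2 changed least of the 8 members, by -0.22 with aIL2RB and -0.17 with both on the log2 scale against aPD1. Which cells its reads came from was not tested. Among 14 pan T cell genes, 14 fell with aIL2RB and 14 with both antibodies against aPD1, with medians of -2.99 and -2.54, and 4 fell with aGM-CSF, with a median of -1.27. Ptprc, a gene of leukocytes in general, was also called, at a log2 fold change of 0.97 with aPD1 against isotype (adjusted p = 0.013) and of -0.81 with aGM-CSF (adjusted p = 0.00797), -1.29 with aIL2RB (adjusted p = 5.2e-06) and -0.98 with both (adjusted p = 0.000278) against aPD1, and its part in the members' values was not tested. The summed level of the pan T cell genes ran from 42.3 to 78.7 CPM in isotype, 91.9 to 170 in aPD1, 33.5 to 89.5 with aGM-CSF, 4.48 to 46.1 with aIL2RB and 2.51 to 95.1 with both. Cd3e, part of the T cell receptor complex, fell by 2.88 on the log2 scale with aIL2RB (adjusted p = 1.42e-05), and Cd8a, which marks cytotoxic T cells, by 3.73 (adjusted p = 1.23e-06). Cd4 had a log2 change of -1.05 ± 0.43 (SE, adjusted p = 0.063), close in size to Foxp3. All 10 cytotoxic and NK cell genes fell with aIL2RB, their median being -3.42.

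Foxp3 was also set against T cell transcripts within each tumor, and its ratio to Cd3e rose in both groups given aIL2RB. The log2 ratio of Foxp3 to Cd3e, from log2 CPM with 2 counts added, averaged -1.68 ± 0.32 in isotype (SD, n = 5), -1.70 ± 0.53 after aPD1 (SD, n = 6) and -1.68 ± 0.69 after aPD1 + aGM-CSF (SD, n = 9). It was 0.18 ± 0.41 (SD, n = 11) with aIL2RB and 0.05 ± 1.05 (SD, n = 11) with both antibodies. The lowest, median and highest values were -2.45, -1.62 and -1.18 with aPD1, -0.60, 0.18 and 0.71 with aIL2RB, and -1.66, -0.06 and 1.68 with both. With aIL2RB all 11 tumors were above every aPD1 tumor, and with both 10 of 11 were.

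The ratio was 3.67-fold higher with aIL2RB than with aPD1, a log2 difference of 1.88 (two-sided exact permutation test, p = 8.08e-05, adjusted p = 0.000404 over 20 ratio tests). It was 1.76 within the first set (exact permutation p = 0.0119) and 2.00 within the second (exact permutation p = 0.0179). With both antibodies it was 3.36-fold higher than with aPD1, a log2 difference of 1.75 (exact permutation, adjusted p = 0.00521), at 0.92 (exact permutation p = 0.0952) in the first and 2.72 (exact permutation p = 0.0179) in the second set. The aGM-CSF group differed from aPD1 by 0.02 and aPD1 from isotype by -0.02 (exact permutation, adjusted p = 0.992 for each). Against isotype the difference was 1.85 with aIL2RB (exact permutation, adjusted p = 0.000763), at 1.53 (exact permutation p = 0.0357) and 2.10 (exact permutation p = 0.0179) within the sets. With both it was 1.73 (exact permutation, adjusted p = 0.00778), at 0.70 (exact permutation p = 0.143) in the first and 2.82 (exact permutation p = 0.0179) in the second set.

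Relative to Cd8a the pooled differences with aIL2RB and with both were larger, a contrast that was not tested. It did not hold throughout. With both against isotype the first set differed by 0.42 for Cd8a and by 0.70 for Cd3e. The log2 ratio of Foxp3 to Cd8a averaged -3.05 ± 0.42 in isotype (SD, n = 5), -3.35 ± 0.46 after aPD1 (SD, n = 6), -3.33 ± 0.52 with aGM-CSF (SD, n = 9), -0.49 ± 0.73 (SD, n = 11) with aIL2RB and -1.10 ± 1.65 (SD, n = 11) with both. With aIL2RB it was 7.24-fold higher than with aPD1, a log2 difference of 2.86 (exact permutation, adjusted p = 0.000404), 2.96 and 2.72 within the sets, all 11 tumors above every aPD1 tumor. With both it was 4.74-fold higher, a log2 difference of 2.25 (exact permutation, adjusted p = 0.00837), at 1.12 (exact permutation p = 0.0714) and 3.59 (exact permutation p = 0.0179) within the sets. Against isotype the difference with both was 1.95 (exact permutation, adjusted p = 0.0336), at 0.42 (exact permutation p = 0.464) in the first and 3.55 (exact permutation p = 0.0179) in the second set, and it no longer passed without isotype replicate 2, 3, 4 or 5, the adjusted p rising to at most 0.0745. Between the 2 groups given aIL2RB the Cd8a ratio differed by -0.61 with both antibodies (permutation test, adjusted p = 0.424), at -1.84 (exact permutation p = 0.00216) in the first and 0.87 (exact permutation p = 0.214) in the second set, and the Cd3e ratio by -0.13 (permutation test, adjusted p = 0.892), at -0.84 (exact permutation p = 0.013) and 0.72 (exact permutation p = 0.0873). Both ratios rest on few reads where T cell transcripts were low. Foxp3 counts were not whole in 36 of 42 tumors, and how far reads shared with other genes entered both ratios was not tested. Cd3e had 6 to 59 counts per tumor with aIL2RB and 0 to 153 with both, Cd8a 7 to 128 and 0 to 488, and a ratio of transcripts is not a ratio of cells.

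**Figure D3:**
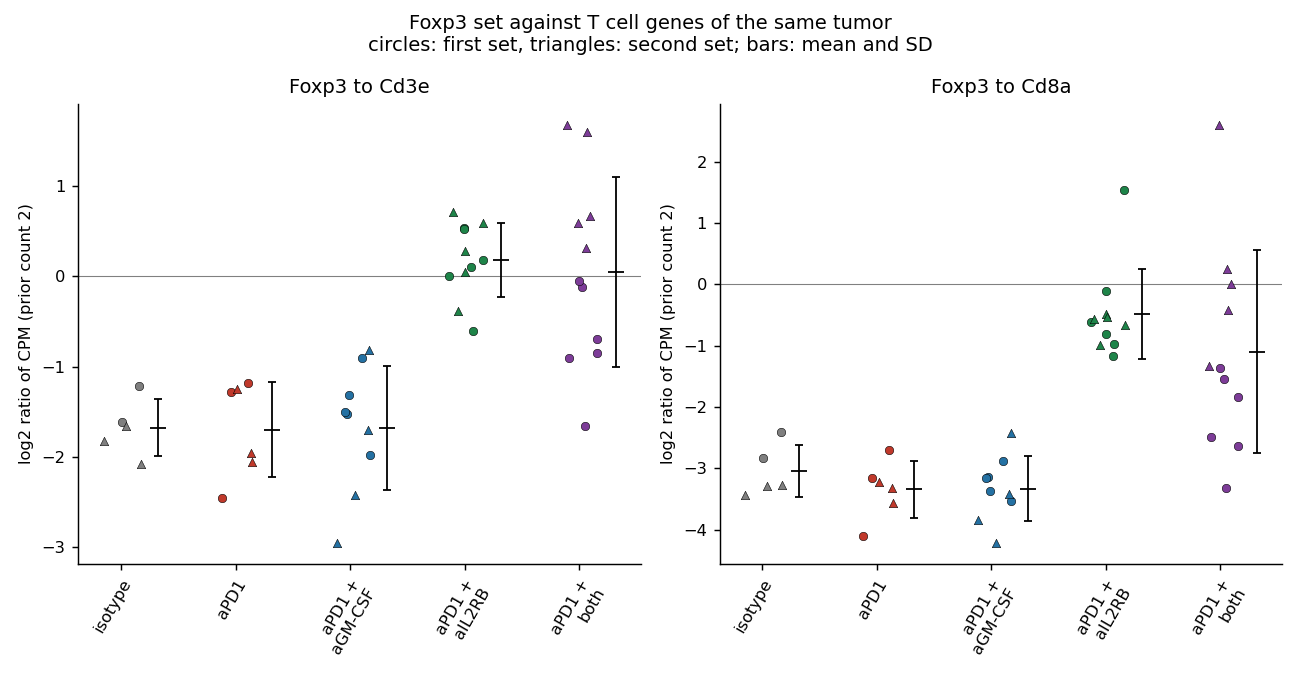
Log2 ratio of Foxp3 to Cd3e and of Foxp3 to Cd8a in each tumor (log2 CPM with 2 counts added), by group and set, with the mean and SD. Tumors given aIL2RB centre at 0.18 and -0.49, above isotype, aPD1 and aPD1 + aGM-CSF tumors, whose means lie between -1.70 and -1.68 for Cd3e and between -3.35 and -3.05 for Cd8a.

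Within treatment groups, 6 of the 7 other members passed the test of a correlation with Foxp3 over tumors, and 3 of them, Icos, Il2ra and Tnfrsf18, also passed with the means of the sets subtracted. The share of all genes that would pass was not computed. Genes outside the members, such as Myo1e (r = 0.82) and Pdcd1 (r = 0.80), had a higher r than any member with group means subtracted. With group means subtracted, Pearson's r with Foxp3 over 42 tumors was 0.78 for Icos (Spearman's rho 0.76), 0.70 for Tnfrsf18 (rho 0.68), 0.67 for Ctla4 (rho 0.70) and 0.66 for Il2ra (rho 0.65). Each had a permutation p of at most 2e-05 for r and 5e-05 for rho, adjusted p at most 3.5e-05 and 7e-05 over the 7 relations, and 1e-05 is the smallest value that 100000 permutations can give. It was 0.51 for Ccr8 (rho 0.57, permutation p = 0.00118 and 0.00028, adjusted p = 0.00165 and 0.000327) and 0.49 for Tnfrsf4 (rho 0.64, permutation p = 0.00369 and 4e-05, adjusted p = 0.0043 and 7e-05). Ikzf2 had an r of 0.04 (rho 0.00, permutation p = 0.836 and 0.989, adjusted the same).

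Without the 2 tumors farthest from the median of Foxp3, r was 0.73 for Icos, 0.66 for Tnfrsf18, 0.60 for Ctla4, 0.59 for Il2ra, 0.54 for Tnfrsf4 and 0.51 for Ccr8. Within the first and second set it was 0.70 and 0.68 for Icos, 0.69 and 0.54 for Il2ra, and 0.62 and 0.52 for Tnfrsf18. It was 0.71 and 0.30 for Ctla4, 0.47 and 0.25 for Ccr8, and 0.57 and 0.00 for Tnfrsf4. It was lower in the second set for each of these 6 members, and the differences were not tested. With set means also subtracted, Icos (r = 0.67, permutation p = 6e-05, adjusted p = 0.00042), Il2ra (r = 0.57, permutation p = 0.00054, adjusted p = 0.00189) and Tnfrsf18 (r = 0.50, permutation p = 0.00891, adjusted p = 0.0208) still passed. Ctla4 (r = 0.40, permutation p = 0.0364, adjusted p = 0.051), Ccr8 (r = 0.34, permutation p = 0.0316, adjusted p = 0.051) and Tnfrsf4 (r = 0.18, permutation p = 0.369, adjusted p = 0.398) did not. All values share a library and its depth within a tumor.

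**Figure D4:**
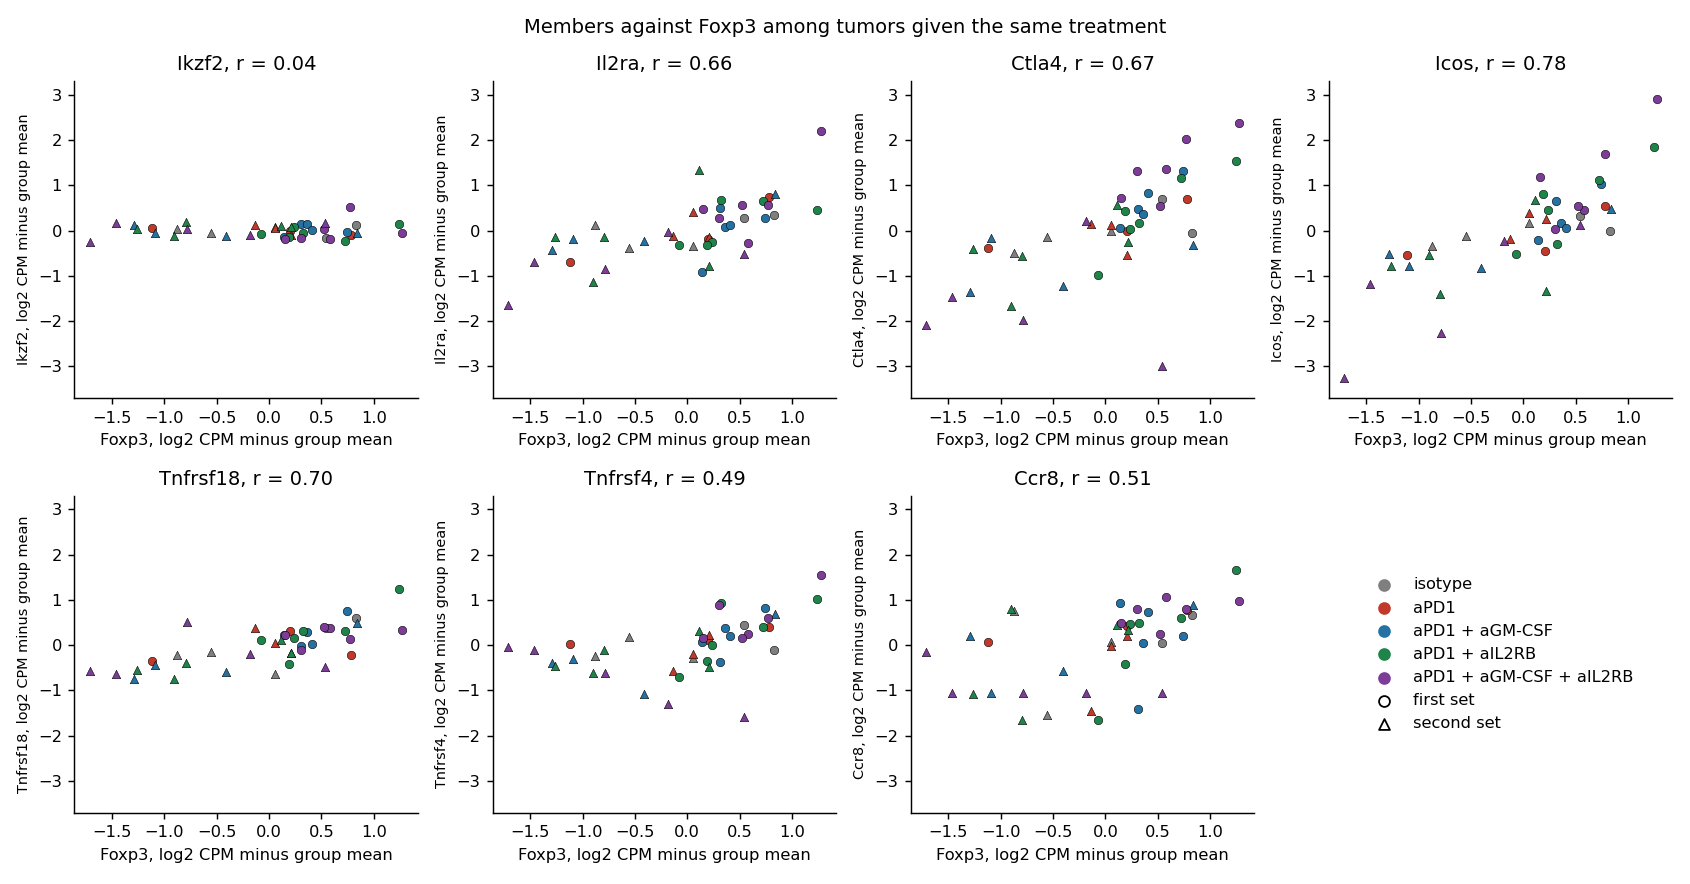
Log2 CPM of each of the 7 other members against that of Foxp3 in 42 tumors, both with the mean of their treatment group subtracted, circles for the first and triangles for the second set. Among these 7, Icos follows Foxp3 most closely (r = 0.78) and Ikzf2 does not follow it (r = 0.04).

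Among 13671 further genes with a mean log2 CPM of at least 0, those with a pattern most like Foxp3 over all 42 tumors were Myo1e (r = 0.84), Hvcn1 (0.83), Cd4 (0.82), Gm37795 (0.82) and Gm2a (0.81). With group means subtracted they were Myo1e (0.82), Hivep3 (0.82), Akap13 (0.81), Pdcd1 (0.80) and Gm37795 (0.80). These values describe likeness over tumors that share libraries and, in the first case, treatments.

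Genes of the wider IL-2 pathway fell in part. Of 13 tested genes of IL-2 and STAT5 signaling, 6 fell with aGM-CSF, 9 with aIL2RB and 10 with both against aPD1, and 3 were higher with aPD1 than isotype. The list includes Il2rb and Il2rg. Cish, a STAT5 target that dampens cytokine signaling, fell by 0.81 with aGM-CSF (adjusted p = 0.0378), by 2.03 with aIL2RB (adjusted p = 3.62e-07) and by 2.92 with both (adjusted p = 4.5e-10) on the log2 scale. Socs2 and Socs3 encode feedback inhibitors of cytokine receptors. Socs2 fell by 1.05 with aGM-CSF (adjusted p = 0.00154), 0.79 with aIL2RB (adjusted p = 0.00436) and 0.68 with both (adjusted p = 0.0136). Socs3 fell by 0.62 with aGM-CSF (adjusted p = 0.0134), 0.81 with aIL2RB (adjusted p = 0.000229) and 0.93 with both (adjusted p = 4.46e-05). Il2rg was 0.95 higher on the log2 scale with aPD1 than isotype (adjusted p = 0.0153).

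Several ligands of the member receptors also passed the test. Cd86, a ligand of CTLA-4 and CD28 on antigen-presenting cells, rose with aPD1 by 1.02 ± 0.23 (SE, adjusted p = 0.00526) on the log2 scale, the 1 of 6 tested ligands to do so. Against aPD1, 3 of 6 fell with aGM-CSF and 5 with aIL2RB and with both. Ccl8, a ligand of CCR8, fell by 1.76 with aGM-CSF (adjusted p = 0.00349) and by 1.82 with aIL2RB (adjusted p = 0.000401). Cd80 fell by 0.90 (adjusted p = 0.0255) and 1.16 (adjusted p = 0.000853). Tnfsf4, the ligand of OX40, fell by 1.58 with aIL2RB (adjusted p = 0.0396) and 1.74 with both (adjusted p = 0.0251). Of 6 tested chemokine genes that draw regulatory T cells, or their receptors, 4 fell in each blocked group. Cxcr3, a receptor of activated T cells, fell by 2.93 with aIL2RB (adjusted p = 9.38e-06). Ccl22, which binds CCR4 and comes from dendritic cells, fell by 1.78 with aGM-CSF (adjusted p = 0.00813), 1.62 with aIL2RB (adjusted p = 0.00439) and 2.72 with both (adjusted p = 1.99e-05). Ccl28 rose by 0.92 with aIL2RB (adjusted p = 0.0155) and 1.00 with both (adjusted p = 0.00906).

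Further receptors of T cells were counted as a list of 8, made of Cd28, Pdcd1 and Btla of the CD28 family and of Tigit, Lag3, Havcr2, Tnfrsf9 and Tnfrsf1b. With aGM-CSF 4 of them fell, none of the CD28 family (adjusted p = 0.0525 for Pdcd1, 0.0609 for Cd28 and 0.3 for Btla), and 7 fell with aIL2RB and with both, Btla not passing in either. Tigit, an inhibitory receptor, fell by 1.44 (adjusted p = 0.0272), 2.77 (adjusted p = 7.68e-06) and 2.53 (adjusted p = 3.84e-05), and with aIL2RB Lag3, another inhibitory receptor, fell by 2.54 (adjusted p = 8.23e-06) and Pdcd1, the gene of PD-1, by 2.38 (adjusted p = 1.79e-06). Of 16 tested suppressive and effector genes of regulatory T cells, 5 fell with aGM-CSF, 6 with aIL2RB and 7 with both, while 1 rose with aIL2RB and 2 with both, beside 2198 and 2215 of the 16932 genes tested that were called higher in these comparisons. Il10, a suppressive cytokine, fell by 2.35 with aIL2RB (adjusted p = 0.00231), Fgl2 by 2.00 (adjusted p = 3.82e-05) and Klrg1 by 1.61 (adjusted p = 0.0266), while Itgb8, whose protein activates TGF-β, rose by 1.09 (adjusted p = 4.12e-05). Among 25 tested transcription factors with a role in these cells, 7 were higher with aPD1 than isotype, and 8, 15 and 13 fell with aGM-CSF, aIL2RB and both against aPD1. Of all genes, 6.17% were called higher with aPD1, and 8.75%, 14.5% and 14.3% lower in the blocked groups. The lists of 16 and 25 genes summed to medians of 997 and 930 CPM in aPD1 tumors, against 66.6 CPM for the 8 members. Which cells these reads came from was not tested. Foxo3 rose by 0.28 with aIL2RB (adjusted p = 0.000403), and Foxo3 and Foxo1 rose by 0.21 (adjusted p = 0.00678) and 0.25 (adjusted p = 0.0273) with both, named here after their values were seen. Ikzf3 and Ikzf4, relatives of Ikzf2, fell by 3.48 (adjusted p = 1.01e-06) and 2.54 (adjusted p = 0.000267) with aIL2RB, Irf4 by 2.19 (adjusted p = 1.15e-05) and Satb1 by 1.96 (adjusted p = 3.41e-06). Macrophage genes also moved, 6 of 7 rising with aPD1 and 6, 5 and 5 falling in the blocked groups.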

How the data were processed

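RNA of 42 tumors was sequenced, and the authors deposited 1 table of expected counts per gene, summed over founder haplotypes and neither normalized nor pooled. Reads were aligned with Bowtie 1.2.3, per the submitters' processing notes, to transcriptomes of the founder strains built on GRCm38, and apportioned by an allele-aware model, so a read shared by overlapping genes can be divided. Expected counts were rounded. Groups came from the labels.

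Genes were kept by filterByExpr (minimum count 10, minimum total 15, here 0.4947 CPM), leaving 16932 of 26811. All tumors entered 1 edgeR 4.0.16 quasi-likelihood model with TMM scaling (R 4.3.3), without a set or block term, with Benjamini-Hochberg adjustment within each comparison and a threshold of 0.05. CPM were computed from TMM-scaled library sizes. Ratios and correlations used log2 CPM with a prior count of 2 and two-sided permutation tests, exact or, where both groups had 10 or more tumors, with 100000 permutations (Python 3.11.15, scipy 1.17.1, numpy 2.4.6, pandas 2.3.3, matplotlib 3.10.9). Totals of 7155486 to 24101674 counts per tumor set the precision. Reads were not counted by molecule.

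Alternatives were DESeq2 1.42.0, other scalings and filters, leaving out the 5 ribosomal RNA genes or each tumor in turn, fits of the compared groups, within each set, with a set term or with the replicate number, an exact rank test and a prior of 0.5. Counts of members under these alternatives are printed without the share over all genes, so they are not read as results about the members. The scripts were tested on simulated data. All 8 members were counted in every comparison, though not each is printed with values in all of them. From each further list at most 4 genes a comparison are named, from the 4 with the largest change past the threshold, not all printed. Foxo1, Foxo3, Socs2 and Ccl28, and Cd28, Pdcd1 and Btla where they did not pass, were added after their values were seen. Il2rb, Il2rg, Cd3e, Cd4, Cd8a, Ptprc and the 5 genes most like Foxp3 are named too. The members and all lists were chosen with earlier results of these data known. B cell, mast cell and innate lymphoid, mature dendritic, fibroblast and endothelial lists were counted as well. Against aPD1, with aGM-CSF, aIL2RB and both, 0, 2 and 1 of 5 B cell genes fell, 1, 1 and 1 of 7 mast cell and innate lymphoid genes, and 3, 4 and 5 of 8 mature dendritic cell genes, while 2 of the last rose with aIL2RB and 1 with both. Of 5 fibroblast genes 1, 3 and 0 fell and 1, 2 and 2 rose, and of 3 endothelial genes 0 fell and 0, 1 and 1 rose.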

Additional observations from a re-analysis of the deposited data

Results flagged for a closer look

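Ccr8 in aPD1 replicate 5 stood far from the other 5 tumors of its group at 0.301 CPM, on 4 counts. In all, 30 sets of values from groups of 5 to 9 tumors were checked in this way, those of the 8 members and of the 2 ratios in 3 groups, and chance flags about 1 in 20. For Icos, the interaction of aGM-CSF and aIL2RB was 2.10 on the log2 scale (edgeR, adjusted p = 0.0454), a call lost within either set, with the replicate block, with library size scaling and without any 1 of 21 of the 37 tumors. For Ctla4 and Icos, the log2 fold change of both antibodies against aPD1 differed by -2.90 each between the second and the first set of tumors, a description only, since the sets were taken from these data.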

How the results depend on the processing

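Of 2539 fold changes of members recomputed under an alternative, 2392 kept their direction and side of the threshold, 58 lost the call, 31 gained it and 58 reversed sign, none of the last over 0.67 in size on the log2 scale in the fit of all tumors. Causes were not tested except where fewer tumors or genes entered by construction. Low counts of Foxp3, Ccr8 and, with aIL2RB, Cd3e limit what single tumors show.

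Counts of members called changed as follows. Only Ikzf2, Il2ra and Tnfrsf18 had at least 10 counts in every tumor, and under that filter 3 members were called with aIL2RB, 2 with both and 1 with aGM-CSF against aPD1, 0 with aIL2RB and 0 with both against isotype, and 0 in the interaction. In the first set the counts were 5, 3 and 0 against aPD1, 0 and 0 against isotype with aIL2RB and with both, and 0 in the interaction. In the second set they were 5 with both against isotype, 4 with both against aGM-CSF and 0 in the interaction. A set term gave 4 with both against isotype and 2 in the interaction. The compared groups alone gave 3 for aPD1 against isotype and 0 for both against isotype. Library size scaling and a minimum total of 5 counts each gave 0 in the interaction. With 1 tumor left out, counts ran from 0 to 1 in the interaction and with aIL2RB against isotype, from 0 to 2 with both against aGM-CSF and from 0 to 3 with both against isotype.

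Deviations of same-numbered tumors from their group means correlated at -0.17 to 0.19, and in each of the 10 comparisons some pairs, at most 4, were over 0.1 and the rest were not, so the numbers were not taken to pair the tumors. A replicate block gave 0 calls in the interaction and 2 with both against isotype. Under the replicate block, which rests on few pairs, the Foxp3 to Cd3e ratio no longer passed with aIL2RB (1.82 against aPD1, 1.72 against isotype) or with both (0.98 and 0.83), nor did the Cd8a ratio (2.99, 2.64, 1.15 and 0.68), and the Cd3e ratio reversed for aGM-CSF (0.23) and aPD1 (0.050) against isotype. With 5 pairs against isotype no permutation p under 0.05 was possible, and 6 pairs against aPD1 left little room after adjustment. These lost calls therefore cannot decide whether the ratios differed. The replicate block also reversed Foxp3 (0.10), Ctla4 (0.084) and Ccr8 (0.030) with aGM-CSF against isotype, Foxp3 (0.28) and Ctla4 (0.060) with aIL2RB against isotype, Foxp3 with aIL2RB against aGM-CSF (0.18) and the Ccr8 interaction (-0.019). It also ended the calls of Foxp3 (-0.57, adjusted p = 0.199) and Ccr8 (-1.36, adjusted p = 0.0953) with aIL2RB against aPD1 in edgeR.

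Within the first set, values reversed with both against aIL2RB for Ctla4 (0.044), Il2ra (0.28) and Tnfrsf4 (0.23), with both against aGM-CSF for Il2ra (0.062) and Tnfrsf4 (0.041), for Foxp3 with aIL2RB against aGM-CSF (0.077) and for Tnfrsf18 with aGM-CSF against isotype (-0.23). Within the second set they reversed for the Ccr8 interaction (-1.88), Ctla4 with aIL2RB against aGM-CSF (0.097), Icos (-0.82) and Tnfrsf18 (0.025) with both against aIL2RB, and Ikzf2 with aIL2RB against isotype (0.028). Tnfrsf18 with aGM-CSF against isotype reversed at -0.020 with library size, -0.0043 with the groups alone, -0.051 with a set term and -0.0088 with a minimum total of 5 counts. Correlations with set means subtracted fell short for Ctla4 (0.40), Ccr8 (0.34) and Tnfrsf4 (0.18). With a prior of 0.5 the Cd8a ratio with both against isotype was 2.12 and no longer passed (adjusted p = 0.0561), and near-zero ratios reversed, for Cd3e with both against aIL2RB (0.039), aGM-CSF against aPD1 (-0.020) and aPD1 against isotype (0.0013), and for Cd8a with aGM-CSF against aPD1 (-0.031). Permutation within the sets put the Cd3e ratio of aGM-CSF against aPD1 at -0.0024.

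With 1 tumor left out, the Cd3e ratio ran from -0.29 to 0.043 with both against aIL2RB, from -0.13 to 0.18 with aGM-CSF against aPD1, from -0.11 to 0.15 with aGM-CSF against isotype and from -0.12 to 0.13 with aPD1 against isotype. The Cd8a ratio ran from -0.98 to -0.39 with both against aIL2RB, where leaving out replicate 8 of the group given both reached an adjusted p of 0.0456, from 1.58 to 2.17 with both against isotype and from -0.14 to 0.14 with aGM-CSF against aPD1. Fold changes ran from -0.20 to 0.096 for Foxp3 with aIL2RB against aGM-CSF, -0.40 to 0.55 for Icos, -0.20 to 0.052 for Tnfrsf18 and -0.27 to 0.13 for Tnfrsf4 with both against aIL2RB, -0.013 to 0.077 with both and -0.046 to 0.024 with aIL2RB for Ikzf2 against isotype, and -0.13 to 0.18 for Tnfrsf18 with aGM-CSF against isotype.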
